A study of Homo sapiens with 8 samples.

Results

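Transcripts of NCI-H716, an established human colorectal cancer cell line, were compared between cells treated with Z325 and control cells. Z325 is the compound ZINC000101867325, which the study took from a docking screen as a candidate inhibitor of the fibroblast growth factor (FGF) receptors FGFR1 to FGFR4. The libraries were chosen by their titles, which give the cell line, control or test, and a replicate number, and the study's methods say that the tested compound was Z325. They are 4 of the 8 libraries of the series, 2 control and 2 Z325, and the others are of HCT116. All genes of the genome were described, 63241 in the tables. Of these 14142 passed the filter on low counts and were tested. Of the tested genes 7694 lie outside chromosomes 1 to 8, where the HCT116 table, not used here, has no values.

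Neither group carries a labelled mutation or transgene, and the titles do not say what the control cells received. The study fixed a working concentration of Z325 from viability assays and gives no separate dose or time for the RNA. About 100 cells went into each reaction, and cDNA was amplified by a SMART-Seq2 type protocol. The study calls the replicates biological duplicates and names no culture, so p-values measure the spread between these libraries.

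Several programs are known to answer stress in gut epithelial cells. NRF2 is a transcription factor that KEAP1 holds at a low level until oxidants or electrophiles modify KEAP1, and it then switches on genes for glutathione synthesis, the thioredoxin system and the reduction of quinones and carbonyls. ATF4 is translated when the integrated stress response slows protein synthesis, and with CHOP it raises genes for amino acid synthesis and transport. PPAR receptors sense fatty acids and drive genes of fat oxidation, and E2F factors drive the genes that copy DNA. FGF receptors signal through ERK, which induces its own inhibitors such as the DUSP and SPRY genes.

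The promoters of 3 of the strongest rises outside chromosomes 1 to 8 are shown first, because they hold the letters TGACNNNGC, the core of the antioxidant response element that NRF2 with a small MAF protein can bind. Promoter sequences are those of RefSeq on GRCh38.p14, each printed as the 250 bases before a RefSeq start on the gene's own strand, with a match to TGACNNNGC on either strand in capitals. The 2 strongest falls with a listed promoter, NPM3 and MUC2, are shown beside them, and neither holds the letters. RefSeq lists several starts for 2895 of the tested genes, and the first listed was used, which can lie inside the span that GENCODE gives the gene, as it does for TRIB3 and SLC3A2.
GPX2, chr14:64942746-64942995, minus strand: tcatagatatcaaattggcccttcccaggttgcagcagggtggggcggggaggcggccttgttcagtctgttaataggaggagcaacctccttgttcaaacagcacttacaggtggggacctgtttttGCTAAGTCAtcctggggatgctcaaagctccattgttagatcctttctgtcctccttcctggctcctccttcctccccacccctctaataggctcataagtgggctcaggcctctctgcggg
TXNRD1, chr12:104215529-104215778, plus strand: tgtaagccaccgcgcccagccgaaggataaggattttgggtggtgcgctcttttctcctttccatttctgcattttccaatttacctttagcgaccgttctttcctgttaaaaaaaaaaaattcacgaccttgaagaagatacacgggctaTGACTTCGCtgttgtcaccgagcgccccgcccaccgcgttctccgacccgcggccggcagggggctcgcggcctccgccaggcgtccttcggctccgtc
TRIB3, chr20:381045-381294, plus strand: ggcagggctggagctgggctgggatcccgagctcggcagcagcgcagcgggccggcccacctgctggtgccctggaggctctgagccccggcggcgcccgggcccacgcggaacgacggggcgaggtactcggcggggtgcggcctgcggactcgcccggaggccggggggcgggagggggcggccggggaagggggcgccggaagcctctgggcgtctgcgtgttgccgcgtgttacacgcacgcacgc
NPM3, chr10:101783447-101783696, minus strand: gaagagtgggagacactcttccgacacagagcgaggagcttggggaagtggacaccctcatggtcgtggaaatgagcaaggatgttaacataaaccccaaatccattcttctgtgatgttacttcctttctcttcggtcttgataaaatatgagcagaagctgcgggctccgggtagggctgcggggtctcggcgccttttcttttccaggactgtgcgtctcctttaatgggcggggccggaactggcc
MUC2, chr11:1074624-1074873, plus strand: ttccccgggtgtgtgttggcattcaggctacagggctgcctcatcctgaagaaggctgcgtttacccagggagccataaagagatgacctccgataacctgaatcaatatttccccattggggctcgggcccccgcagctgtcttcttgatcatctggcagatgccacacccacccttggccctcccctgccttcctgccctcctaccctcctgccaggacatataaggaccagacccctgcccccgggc
In GPX2 the match starts 122 bases before the RefSeq start and is read on the opposite strand, and in TXNRD1 it starts 99 bases before the start. A second match in TXNRD1, on the opposite strand, reaches past the start and is not in capitals. In TRIB3 the match reaches past the start, so the printed bases hold none. Of the 14 named rises outside chromosomes 1 to 8, 12 had a listed promoter, and only these 3 promoters held TGACNNNGC. AKR1C2, AKR1C1 and ANGPTL4, which rose more than TXNRD1, had no match in this window.

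The libraries differed in depth and in base composition. They held 10210272 to 19738881 counts, with control 2 the shallowest and Z325 2 the deepest, and mitochondrial transcripts took 9.40% and 8.77% of counts in the controls against 7.92% and 7.14% with Z325. Z325 1 correlated with control 2 (Pearson's r = 0.982 over the log2(FPKM + 1) of tested genes) about as closely as with Z325 2 (r = 0.981), and Z325 2 stood farthest from control 1 (r = 0.961). Across the 10 groups of genes from lowest to highest transcript GC content, the median deviation of control 1 from the mean of the 4 libraries ran from -0.14 to 0.32 on the log2 scale and that of Z325 2 from 0.13 to -0.25, while control 2 stayed within -0.01 to 0.04 and Z325 1 within -0.04 to 0.04. The part of GC content in any single result was not tested beyond the refit with a GC term given beside it.

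Of the genes that mark the cell type, 17 of 30 enteroendocrine genes (3 of 11 hormones) and 22 of 30 intestinal identity genes passed the filter on low counts. The glucagon gene GCG had 2541 and 2015 CPM in the controls and 1825 and 1642 CPM with Z325 (CPM are normalized counts scaled to the library total). The granule protein CHGB had 458 and 525 CPM in the controls and 585 and 765 CPM with Z325 and the keratin KRT8 361 and 336 CPM in the controls and 315 and 274 CPM with Z325. The epithelial surface protein EPCAM had 47.5 and 50.2 CPM in the controls and 38.6 and 43.3 CPM with Z325 and the cadherin CDH17 147 and 139 CPM in the controls and 147 and 119 CPM with Z325. CDH1 (E-cadherin) was at or near 0, with at most 0.530 CPM in a library, PYY was at 0 in all 4, and NEUROD1 reached 0.0757 CPM in 1 library. Of 12 leukocyte markers 1 (LYZ, at most 3.30 CPM) was tested, and PTPRC reached 0.0764 CPM. Of 12 fibroblast and endothelial markers, COL1A1, DCN, THY1 and PECAM1 stayed under 1 CPM, while LUM, COL3A1 and FAP were abundant in every library. The liver gene ALB had 310.3 and 383 CPM in the controls and 335 and 424 CPM with Z325.

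Few genes were called in edgeR, each with a large change, and the calls do not tell how far the other genes moved. At an adjusted p under 0.05 in edgeR's quasi-likelihood test, 57 genes rose and 14 fell, which is 0.403% and 0.099% of the 14142 genes tested. Outside chromosomes 1 to 8, 30 genes rose and 8 fell, 0.39% and 0.104% of the 7694 tested there. In every one of the 71 genes both Z325 libraries lay on one side of both controls, as they did for 49.7% of the tested genes outside chromosomes 1 to 8, and the smallest change called was 0.96 on the log2 scale. At an unadjusted p below 0.05, 1073 genes were higher (7.59%) and 1309 lower (9.26%), and outside chromosomes 1 to 8 there were 527 higher (6.85%) and 825 lower (10.7%).

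These counts leaned on single libraries. Without control 1 there were 52 rises and 10 falls, without control 2 77 and 148, without Z325 1 503 and 895, and without Z325 2 115 and 109, where the lone library left in a group is assumed to vary as the other group does. Of the 71 genes, 45 were still called without control 1, 63 without control 2 and all 71 without either Z325 library, and every gene kept its direction in each of these fits. With a term for GC content, chosen after seeing the data, there were 84 rises and 26 falls, and outside chromosomes 1 to 8 47 and 17. Most of the gene lists below that held no call gained some without Z325 1, at most 6 in 1 direction. The number of members past the unadjusted threshold of 0.05 fell by over 1.5 times without control 1 in 18 of the 25 lists that had any, without control 2 in 5, without Z325 1 in 1 and without Z325 2 in 6. The shares of all tested genes above are the background for every list.

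AKR1C2 and AKR1C1, aldo-keto reductases on chromosome 10, had the smallest p-values of the called genes in edgeR, though not all of the largest folds. These enzymes reduce aldehydes and ketones, including products of lipid peroxidation and steroids. AKR1C2, at chr10:4987775-5018031, had 67.8 and 82.0 CPM in the controls and 975 and 970.4 CPM with Z325, a 13.0-fold rise (log2 fold change 3.70 ± 0.18, SE, n = 2 per group, adjusted p = 1.55e-05 in edgeR). AKR1C1, at chr10:4963253-4983283, had 59.7 and 69.4 CPM in the controls and 509.9 and 585 CPM with Z325 (log2 fold change 3.08 ± 0.18, adjusted p = 4.22e-05). In both genes the Z325 libraries stood several-fold above the controls and close to each other. AKR1C3, beside them, was far more abundant and rose less, with 1782 and 1686 CPM in the controls and 4299 and 3749.8 CPM with Z325 (log2 fold change 1.21 ± 0.16, adjusted p = 0.00983). AKR1C4 of the same cluster had 709 and 629 CPM in the controls and 577 and 539 CPM with Z325 and did not pass the test (log2 fold change -0.26 ± 0.16, unadjusted p = 0.124). AKR1C1 and AKR1C2 are close paralogs, and 27.1% of the 75-base windows of AKR1C2 transcripts and 18.5% of those of AKR1C1 also occur in transcripts of another gene, so how counts were split between this pair is uncertain. AKR1B10 on chromosome 7, which reduces retinal and aldehydes, showed the largest fold of the named genes, with 0.227 and 0.873 CPM in the controls and 39.4 and 24.2 CPM with Z325 (log2 fold change 5.91 ± 0.47, adjusted p = 0.000413), and lay between log2 fold changes of 5.17 and 7.09 when each library was left out in turn.

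Glutathione and thioredoxin genes rose with them. GPX2, an intestinal glutathione peroxidase, at chr14:64939152-64942746, had 11.4 and 14.1 CPM in the controls and 88.4 and 85.5 CPM with Z325 (log2 fold change 2.78 ± 0.20, adjusted p = 0.00025). TXNRD1, the cytosolic thioredoxin reductase, at chr12:104215779-104350307, had 159 and 179 CPM in the controls and 463 and 605 CPM with Z325 (log2 fold change 1.66 ± 0.18, adjusted p = 0.00299). Both are the genes whose promoters are printed above with TGACNNNGC in capitals, and in both the groups were apart, as the naming rule requires. SRXN1, which repairs oxidized peroxiredoxins, had 15.4 and 18.7 CPM in the controls and 38.9 and 45.2 CPM with Z325 (log2 fold change 1.31 ± 0.21, adjusted p = 0.0245), although 90.5% of its transcript windows are shared with an overlapping gene. SLC7A11, the cystine transporter, on chromosome 4, had 43.8 and 54.9 CPM in the controls and 236 and 233 CPM with Z325 (log2 fold change 2.25 ± 0.18, adjusted p = 0.000413), and its partner chain SLC3A2 on chromosome 11 had 98.8 and 105 CPM in the controls and 233 and 216 CPM with Z325 (log2 fold change 1.14 ± 0.16, adjusted p = 0.0131). TXN itself, the substrate of TXNRD1, had 692 and 639 CPM in the controls and 800.5 and 884 CPM with Z325 and did not pass the test (unadjusted p = 0.0534).

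Other detoxifying enzymes outside chromosomes 1 to 8 followed. ALDH3A1, an aldehyde dehydrogenase, at chr17:19737984-19748943, had 5.07 and 5.53 CPM in the controls and 24.8 and 17.9 CPM with Z325 (log2 fold change 2.01 ± 0.27, adjusted p = 0.0108). PTGR1, which reduces prostaglandins and unsaturated aldehydes, at chr9:111549722-111599893, had 19.4 and 12.1 CPM in the controls and 43.5 and 45.1 CPM with Z325 (log2 fold change 1.48 ± 0.24, adjusted p = 0.0266). NQO1, the quinone reductase, on chromosome 16, had 945 and 810.5 CPM in the controls and 2208 and 1878 CPM with Z325 (log2 fold change 1.22 ± 0.17, adjusted p = 0.0127). OSGIN1, an oxidative stress inducible growth inhibitor on the same chromosome, had 0.227 and 0.970 CPM in the controls and 9.93 and 10.2 CPM with Z325 (log2 fold change 4.13 ± 0.52, adjusted p = 0.00746). In none of these 4 did the groups overlap, which held for every called gene. HMOX1, heme oxygenase, had 0.151 and 0.679 CPM in the controls and 3.74 and 3.62 CPM with Z325 and missed the threshold (adjusted p = 0.0814).

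TRIM16 and a gene with the symbol TRIM16L that is annotated as a long noncoding RNA, both on chromosome 17, were called higher. TRIM16, an E3 ubiquitin ligase, at chr17:15627960-15684311, had 17.9 and 13.8 CPM in the controls and 57.2 and 36.3 CPM with Z325 (log2 fold change 1.56 ± 0.26, adjusted p = 0.0287). TRIM16L, at chr17:18697998-18736118, had 4.62 and 5.92 CPM in the controls and 57.6 and 37.1 CPM with Z325 (log2 fold change 3.17 ± 0.28, adjusted p = 0.000815). Z325 1 was above Z325 2 in both genes. Both Z325 libraries were above both controls, as the naming rule requires. They share sequence, 33.2% of the transcript windows of TRIM16 and 41.3% of those of TRIM16L being found in another gene, and a second annotated gene carries the symbol TRIM16L, so the split of counts is uncertain. Separate rises of both are therefore not shown.

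**Figure D1:**
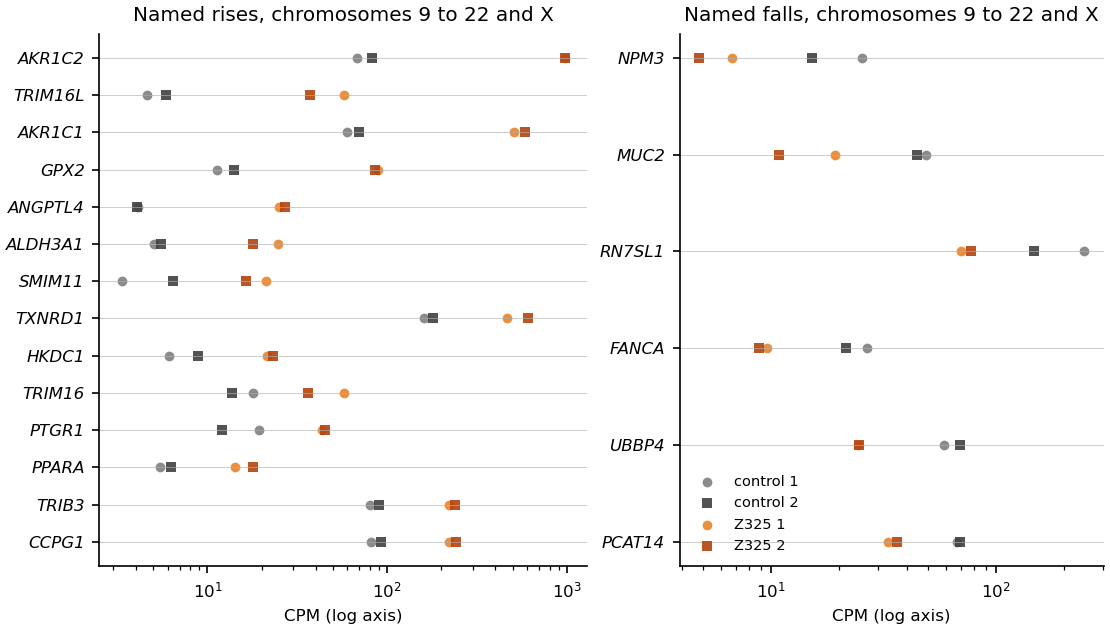
CPM on a log axis is shown for the 14 largest called rises (left) and the 6 called falls (right) outside chromosomes 1 to 8 that have a symbol and a mean of at least 10 CPM, with 1 point per library. In every gene drawn both Z325 libraries (orange) lie on one side of both controls (grey), as the naming rule requires. AKR1C2 lies at 67.8 and 82.0 CPM in the controls and at 975 and 970.4 with Z325.

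Over the whole list of NRF2 targets, 55 of the 59 genes were tested, and 21 rose at an adjusted p under 0.05 and none fell, against 0.403% and 0.099% of all genes tested. At the unadjusted threshold of 0.05, 36 were higher and none lower, against 7.59% and 9.26% of all tested genes. The median log2 fold change was 0.92, against -0.01 over all tested genes. By role, 4 of 6 glutathione and cystine genes, 2 of 4 of the thioredoxin system, 7 of 12 carbonyl and quinone reductases, 1 of 6 genes of NADPH supply, 1 of 8 of heme and iron, 1 of 9 of conjugation and efflux, and 5 of 10 regulators and others rose. Outside chromosomes 1 to 8, 14 of 35 tested members rose, against 0.39% of all genes tested there. Leaving out each library in turn gave 19 to 30 rises over the whole list, the GC term gave 23, DESeq2 25 and limma on log2(FPKM + 1) 4. The list was written with earlier results of these data known and many of its members are named above, so its count describes the response and is no independent evidence of it.

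Members of the list that hold TGACNNNGC are given with their elements, as windows of 30 bases in the direction of the motif. The list was chosen with these data known, so the share below is a description. Of 42 tested members with a listed promoter, 13 (31.0%) held it, against 15.1% of the 10162 tested genes with a promoter. The share was 26.9% (7 of 26) in the ATF4 and CHOP list, 20.6% (7 of 34) in G2/M and 14.3% (4 of 28) in DNA replication. Among all called rises 9 of 47 (19.1%) held it, and of the 5 called falls with a promoter none did. The 7 members that were called are these, with the motif in capitals:
GCLM, chr1:93909445-93909474, plus strand: ctggaagacaaTGACTAAGCagaaatcgta
GPX2, chr14:64942848-64942877, plus strand: catccccaggaTGACTTAGCaaaaacaggt
TXNRD1, chr12:104215670-104215699, plus strand: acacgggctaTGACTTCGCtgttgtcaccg
SLC3A2, chr11:62881652-62881681, plus strand: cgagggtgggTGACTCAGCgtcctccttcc
ME1, chr6:83431169-83431198, minus strand: tctcctgccaTGACTCAGCgcttctcgcag
PIR, chrX:15493288-15493317, plus strand: tagcctcaccgTGACTCAGCgcttcgcggc
ABCB6, chr2:219219091-219219120, minus strand: cctgggcacgTGACCAAGCcggctctgctt
SLC3A2, ME1 and PIR carry the same 9 letters, TGACTCAGC, and GSTP1, whose promoter carries them too, had 682 and 512 CPM in the controls and 582 and 478 CPM with Z325 with groups that overlap and a log2 fold change of -0.17 ± 0.19 (unadjusted p = 0.379). ABCC4, CBR1, FECH, MAFF and PGD also held the motif and were not called. A match of letters is a description of the window and not a binding site.

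GCLM, the modifier subunit of the enzyme that starts glutathione synthesis, had 29.7 and 38.3 CPM in the controls and 148 and 131 CPM with Z325 (log2 fold change 2.04 ± 0.19, adjusted p = 0.00119). The catalytic subunit GCLC had 53.5 and 60.8 CPM in the controls and 104 and 106 CPM with Z325, a smaller difference that missed the threshold (log2 fold change 0.88 ± 0.17, adjusted p = 0.0618). The iron storage subunits FTL and FTH1 were among the most abundant transcripts of the list and varied between libraries. FTL had 14393 and 11470.2 CPM in the controls and 28339 and 12896 CPM with Z325 and FTH1 1269.9 and 611 CPM in the controls and 1994 and 1495 CPM with Z325, and neither passed the test (adjusted p = 0.294 and 0.188). FTL was high in Z325 1 and, in Z325 2, between the controls. The sensor KEAP1 had 18.2 and 17.6 CPM in the controls and 20.1 and 17.6 CPM with Z325 with groups that overlap (adjusted p = 0.896). NFE2L2, the gene of NRF2 itself, had 84.0 and 94.0 CPM in the controls and 121 and 127 CPM with Z325 (adjusted p = 0.2).

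Some genes known to answer ATF4 and CHOP also rose, and the activity of these factors was not tested. TRIB3, a pseudokinase and CHOP target, at chr20:362835-397559, had 80.4 and 89.6 CPM in the controls and 221 and 238 CPM with Z325 (log2 fold change 1.43 ± 0.16, adjusted p = 0.00413). GDF15, a secreted stress cytokine on chromosome 19, had 2.65 and 1.65 CPM in the controls and 10.2 and 11.6 CPM with Z325 (log2 fold change 2.32 ± 0.35, adjusted p = 0.0178). ASNS, asparagine synthetase, had 103 and 108 CPM in the controls and 257 and 233 CPM with Z325 (log2 fold change 1.21 ± 0.16, adjusted p = 0.00983), with 43.5% of its windows shared with an overlapping gene. PHGDH, the first enzyme of serine synthesis, had 121 and 136 CPM in the controls and 253 and 294 CPM with Z325 (log2 fold change 1.09 ± 0.17, adjusted p = 0.019). In each of the 4 both Z325 libraries were above both controls, which held for every called rise. NUPR1, a small stress-induced chromatin protein on chromosome 16, had 1.21 and 3.68 CPM in the controls and 20.2 and 10.3 CPM with Z325 and lay just past the threshold (log2 fold change 2.67 ± 0.49, adjusted p = 0.0511). PCK2, mitochondrial PEPCK, and CCPG1, a receptor for autophagy of the endoplasmic reticulum, also rose, and both are described with the other called genes below.

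Of 36 genes on the ATF4 and CHOP list 32 were tested, 4 rose and none fell at an adjusted p under 0.05, against 0.403% and 0.099% of all tested genes, and 22 were higher and none lower at the unadjusted threshold of 0.05, against 7.59% and 9.26% of all tested genes. The median was 0.76. Regulators had 8 of 12 tested members higher at the unadjusted threshold, amino acid synthesis 7 of 11 and transport 4 of 6. The called transport genes SLC7A11 and SLC3A2 were counted on the NRF2 list and not here. The counts of both lists therefore depend on how genes were assigned. Outside chromosomes 1 to 8, 2 of 22 rose and 15 were higher at the unadjusted threshold, against 0.39% and 6.85% of all genes tested there. The number called varied with the method. It was 15 in DESeq2, 11 with the GC term, 0 in limma on log2(FPKM + 1), and 5, 5, 16 and 9 without control 1, control 2, Z325 1 and Z325 2, whereas the median stayed between 0.74 and 0.86 over those 4 fits.

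A few genes of this list, 4 in all, held TGATGNAA, the letters of the composite element that ATF4 with a C/EBP partner such as CHOP can bind, out of 26 members with a promoter (15.4%), against 1.81% of all tested genes with a promoter. The list was made of genes known to answer these factors and chosen with these data known, so the share is a description. They are shown as windows of 30 bases, with the motif in capitals:
ASNS, chr7:97872458-97872487, minus strand: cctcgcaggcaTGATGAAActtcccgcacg
CHAC1, chr15:40953251-40953280, minus strand: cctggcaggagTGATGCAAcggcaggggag
SLC7A1, chr13:29595663-29595692, minus strand: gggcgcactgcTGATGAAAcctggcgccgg
ATF3, chr1:212565205-212565234, plus strand: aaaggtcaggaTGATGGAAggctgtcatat
Only ASNS of these was called. Over all called rises with a promoter, 3 of 47 (6.38%) held TGATGNAA. They were ASNS and, from outside this list, S100P and SLC3A2, the latter also shown above with TGACNNNGC. CHAC1, which degrades glutathione, had 3.03 and 1.94 CPM in the controls and 11.2 and 5.58 CPM with Z325 (log2 fold change 1.73 ± 0.43, unadjusted p = 0.00236). SLC7A1, a cationic amino acid transporter, had 42.7 and 46.7 CPM in the controls and 71.5 and 79.1 CPM with Z325 (log2 fold change 0.75 ± 0.18, unadjusted p = 0.00147). ATF3, a stress transcription factor, had 4.16 and 6.11 CPM in the controls and 6.87 and 9.55 CPM with Z325 (log2 fold change 0.69 ± 0.33, unadjusted p = 0.0654).

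The aminoacyl-tRNA synthetases, a group that ATF4 also regulates, held no call in edgeR. Of 20 tested, edgeR called none at an adjusted p under 0.05, DESeq2 called 4 higher and limma none, and at the unadjusted threshold of 0.05 in edgeR 8 were higher and 1 lower, against 7.59% and 9.26% of all tested genes, with a median of 0.31. Without control 1 the 8 became 3. WARS1 had 200.4 and 204 CPM in the controls and 324 and 329.6 CPM with Z325 and GARS1 431 and 554 CPM in the controls and 768 and 865 CPM with Z325 (adjusted p = 0.0923 and 0.115). The endoplasmic reticulum chaperones did not follow. Of 21 tested, edgeR and limma called none and DESeq2 1 lower. At the unadjusted threshold of 0.05 in edgeR 3 were higher and 4 lower, against 7.59% and 9.26% of all tested genes, and the median was -0.07. SDF2L1, a chaperone cofactor, had 91.1 and 53.5 CPM in the controls and 41.6 and 33.2 CPM with Z325 and HYOU1, a large chaperone, 21.7 and 16.2 CPM in the controls and 12.3 and 7.94 CPM with Z325, both lower in both Z325 libraries (unadjusted p = 0.00338 and 0.00849), while the stress sensor ERN1 had 11.7 and 9.41 CPM in the controls and 21.9 and 16.8 CPM with Z325 (unadjusted p = 0.00574).

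Of 18 heat shock genes, 1 rose at an adjusted p under 0.05. It was DNAJB4, a cochaperone, with 17.5 and 19.3 CPM in the controls and 59.8 and 50.2 CPM with Z325 (log2 fold change 1.58 ± 0.20, adjusted p = 0.00746). At the unadjusted threshold of 0.05, 9 were higher and 1 lower, against 7.59% and 9.26% of all tested genes, and the lower one, the small heat shock protein HSPB1, had 167 and 80.2 CPM in the controls and 73.5 and 33.4 CPM with Z325. The median was 0.44 and lay between 0.29 and 0.53 when each library was left out, without control 1 the 9 higher became 3, and without Z325 1 there were 7 rises and 1 fall. Of 9 tested metallothionein and zinc transporter genes, edgeR, DESeq2 and limma called none and 3 were higher at the unadjusted threshold of 0.05 in edgeR, among them MT1G on chromosome 16 with 10.2 and 5.82 CPM in the controls and 14.5 and 15.1 CPM with Z325 (unadjusted p = 0.0144).

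**Figure D2:**
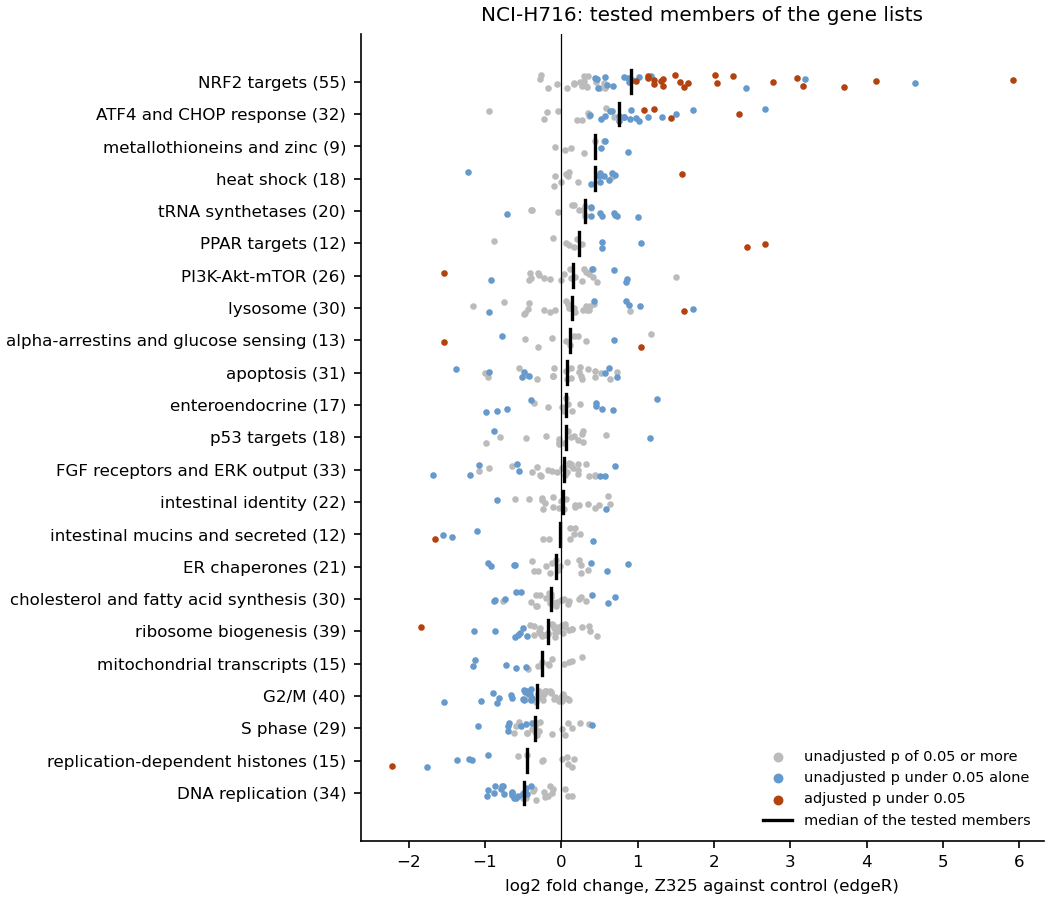
Each point is a tested member of a gene list with at least 9 tested genes, placed by its log2 fold change (x axis, Z325 against control, edgeR) in the row of its list (y axis, number of tested members in brackets), and the black bar is the list's median. The median is 0.92 for NRF2 targets, 0.76 for the ATF4 and CHOP response and -0.49 for DNA replication, and red points mark an adjusted p under 0.05.

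Fat metabolism genes known as PPAR targets gave some of the largest folds, and the activity of PPAR receptors was not tested. ANGPTL4, a secreted inhibitor of lipoprotein lipase, at chr19:8363289-8374370, had 4.09 and 4.07 CPM in the controls and 25.0 and 26.8 CPM with Z325 (log2 fold change 2.66 ± 0.25, adjusted p = 0.00106). PDK4, the kinase that shuts pyruvate dehydrogenase, at chr7:95583499-95596516, had 8.25 and 11.5 CPM in the controls and 45.5 and 60.3 CPM with Z325 (log2 fold change 2.43 ± 0.25, adjusted p = 0.00184). The receptor gene PPARA, at chr22:46150521-46243755, had 5.45 and 6.30 CPM in the controls and 14.2 and 17.8 CPM with Z325 and was called narrowly (log2 fold change 1.45 ± 0.27, adjusted p = 0.0496). In all 3 the groups were apart, as the naming rule requires. CPT1A, the carnitine transferase that lets fatty acids into mitochondria, had 4.24 and 3.98 CPM in the controls and 7.87 and 9.05 CPM with Z325 and missed the threshold (adjusted p = 0.166). Of 12 tested PPAR targets 2 rose and none fell, against 0.403% and 0.099% of all tested genes. At the unadjusted threshold of 0.05 5 were higher, against 7.59%, and the median was 0.24. The synthesis side held no call in edgeR. Of 30 tested cholesterol and fatty acid synthesis genes edgeR and limma called none and DESeq2 1 lower. In edgeR, 3 were higher and 5 lower at the unadjusted threshold of 0.05, against 7.59% and 9.26% of all tested genes. SREBF1 and ACACA, a regulator and an enzyme of fatty acid synthesis on chromosome 17, had 26.5 and 24.2 CPM in the controls and 13.4 and 14.2 CPM with Z325 and 22.7 and 25.4 CPM in the controls and 13.6 and 12.4 CPM with Z325 (unadjusted p = 0.002 and 0.00214). HMGCS1 of the cholesterol pathway had 27.1 and 34.8 CPM in the controls and 42.5 and 57.6 CPM with Z325 (unadjusted p = 0.00937).

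Other named rises belonged to no single program. SMIM11, a small membrane protein on chromosome 21 at chr21:34375480-34416961, had 3.33 and 6.40 CPM in the controls and 21.2 and 16.4 CPM with Z325 (log2 fold change 1.96 ± 0.33, adjusted p = 0.0299), and 9.89% of its windows are shared with another gene. HKDC1, a hexokinase-like protein of epithelia, at chr10:69220332-69267552, had 6.13 and 8.82 CPM in the controls and 21.4 and 23.2 CPM with Z325 (log2 fold change 1.58 ± 0.26, adjusted p = 0.0266). CCPG1, at chr15:55340032-55408510, had 81.3 and 92.8 CPM in the controls and 219 and 240.0 CPM with Z325 (log2 fold change 1.40 ± 0.17, adjusted p = 0.00516), with 36.0% of its windows shared, nearly all with the readthrough gene DNAAF4-CCPG1. LINC01564, a long noncoding RNA on chromosome 6, had 3.56 and 3.20 CPM in the controls and 33.1 and 27.1 CPM with Z325 (log2 fold change 3.15 ± 0.26, adjusted p = 0.000452).

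The other 16 rises outside chromosomes 1 to 8 are named here to account for every call, after their values were seen. Besides OSGIN1, GDF15, SRXN1, NQO1, AKR1C3 and SLC3A2 they were BEST1, AKNA, ENSG00000289754, MOCOS, SLFN5, NTN4, DCDC1, PCK2, PIR and ANXA1. PCK2 on chromosome 14 had 38.8 and 41.7 CPM in the controls and 88.5 and 92.1 CPM with Z325 (log2 fold change 1.17 ± 0.17, adjusted p = 0.0159), PIR, an iron protein on the X chromosome, 64.3 and 69.7 CPM in the controls and 124 and 139.8 CPM with Z325 (log2 fold change 0.98 ± 0.17, adjusted p = 0.0327), and ANXA1, a phospholipid-binding protein on chromosome 9, 162 and 194 CPM in the controls and 360.3 and 334 CPM with Z325 (log2 fold change 0.96 ± 0.16, adjusted p = 0.0327). These were well-expressed genes with modest folds. By contrast BEST1, a chloride channel gene on chromosome 11, with 1.67 and 0.873 CPM in the controls and 8.40 and 18.6 CPM with Z325, MOCOS, which sulfurates the molybdenum cofactor, on chromosome 18, with 1.36 and 0.970 CPM in the controls and 5.73 and 7.89 CPM with Z325, SLFN5 on chromosome 17 with 1.14 and 1.94 CPM in the controls and 8.17 and 8.90 CPM with Z325 and AKNA on chromosome 9 with 0.606 and 0.485 CPM in the controls and 4.35 and 4.07 CPM with Z325 were low in the controls and had log2 fold changes of 3.38 ± 0.47, 2.53 ± 0.43, 2.49 ± 0.39 and 2.92 ± 0.53. The netrin gene NTN4 had 8.78 and 7.66 CPM in the controls and 19.3 and 21.6 CPM with Z325 and DCDC1 20.2 and 17.8 CPM in the controls and 42.2 and 49.2 CPM with Z325. FTH1, on the other strand, overlaps 14.6% of the exon bases of BEST1. NUPR1, on the same strand, overlaps 92.8% of those of ENSG00000289754, so the counts of both calls are uncertain. Of the 30 rises outside chromosomes 1 to 8, 17 are in one of the gene lists and 13 in none.

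Called falls were fewer than called rises in the main edgeR fit and more mixed. They were not fewer in DESeq2, which called 173 rises and 191 falls over all tested genes. NPM3, a nucleolar histone chaperone, at chr10:101781325-101783446, had 25.4 and 15.1 CPM in the controls and 6.72 and 4.77 CPM with Z325 (log2 fold change -1.83 ± 0.32, adjusted p = 0.0327). MUC2, the gel-forming mucin of goblet cells, at chr11:1074875-1110511, had 49.0 and 44.6 CPM in the controls and 19.2 and 10.9 CPM with Z325 (log2 fold change -1.65 ± 0.27, adjusted p = 0.0249). FANCA, a subunit of the Fanconi anemia DNA crosslink repair complex, at chr16:89726683-89816977, had 26.8 and 21.5 CPM in the controls and 9.55 and 8.80 CPM with Z325 (log2 fold change -1.40 ± 0.24, adjusted p = 0.0299), and 19.6% of its exon bases overlap ZNF276 on the other strand. In these 3 coding genes the groups did not overlap, as the naming rule requires, and the controls of NPM3 were far apart.

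The other named falls outside chromosomes 1 to 8 were noncoding. RN7SL1, the RNA of the signal recognition particle, at chr14:49586580-49586878, had 247 and 147 CPM in the controls and 69.8 and 77.6 CPM with Z325 (log2 fold change -1.42 ± 0.23, adjusted p = 0.0266), UBBP4, a ubiquitin pseudogene, at chr17:22204093-22205009, 58.8 and 69.3 CPM in the controls and 24.4 and 24.6 CPM with Z325 (log2 fold change -1.39 ± 0.19, adjusted p = 0.0108), and PCAT14, a long noncoding RNA, at chr22:23536881-23547797, 67.2 and 69.2 CPM in the controls and 32.9 and 36.1 CPM with Z325 (log2 fold change -0.98 ± 0.18, adjusted p = 0.0443). The first 2 share sequence with other genes: 77.3% of the windows of RN7SL1 recur in other genes, and all windows of UBBP4 recur in a second gene of the same symbol, so their counts are uncertain. The remaining calls there, ENSG00000144785 with 8.10 and 4.85 CPM in the controls and 0.382 and 0.653 CPM with Z325 and ENSG00000258430 with 11.8 and 3.20 CPM in the controls and 0.382 and 0.0503 CPM with Z325, were under 1 CPM in both Z325 libraries and are named only to complete the 8. On chromosomes 1 to 8 the named falls were TXNIP, an inhibitor of glucose uptake and of thioredoxin, with 185 and 202 CPM in the controls and 67.0 and 66.1 CPM with Z325 (log2 fold change -1.54 ± 0.16, adjusted p = 0.00232), the histone gene H4C14 with 12.6 and 22.6 CPM in the controls and 4.12 and 3.42 CPM with Z325 (log2 fold change -2.22 ± 0.33), which shares 96.2% of its windows with H4C15, and the mitochondrial pseudogene MTCO2P12 with 27.3 and 20.4 CPM in the controls and 9.16 and 6.68 CPM with Z325 (log2 fold change -1.60 ± 0.27).

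The alpha-arrestin family held a rise and a fall. Beside the fall of TXNIP, ARRDC3, which marks receptors for endocytosis, rose with 40.3 and 40.6 CPM in the controls and 90.7 and 76.6 CPM with Z325 (log2 fold change 1.05 ± 0.18, adjusted p = 0.0316). Outside chromosomes 1 to 8, ARRDC4, another glucose-responsive member, had 55.7 and 66.9 CPM in the controls and 34.5 and 37.2 CPM with Z325 (log2 fold change -0.77 ± 0.19, adjusted p = 0.115) and ARRDC2 7.80 and 8.73 CPM in the controls and 11.9 and 14.6 CPM with Z325 (log2 fold change 0.68 ± 0.26, adjusted p = 0.233), and neither passed the test. Of 13 tested members of the list, 1 rose and 1 fell, against 0.403% and 0.099% of all tested genes. The call of ARRDC3 was lost without control 1 (edgeR adjusted p = 0.127) and without control 2 (adjusted p = 0.0615), with log2 fold changes of 1.04 and 1.07.

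Genes that copy DNA held no call in edgeR, and many were below the controls at the unadjusted threshold. Of 34 DNA replication genes, all tested, edgeR called none at an adjusted p under 0.05, limma none and DESeq2 6 lower, and at the unadjusted threshold of 0.05 in edgeR none was higher and 19 lower, against 7.59% and 9.26% of all genes. The log2 fold change was below 0 in 31, with a median of -0.49. Outside chromosomes 1 to 8, 13 of 21 were lower at the unadjusted threshold, against 10.7% of all genes tested there. CDC45, part of the replicative helicase, on chromosome 22, had 33.8 and 29.6 CPM in the controls and 18.6 and 15.9 CPM with Z325 (log2 fold change -0.88 ± 0.21, adjusted p = 0.114). MCM5, another helicase subunit on the same chromosome, had 51.5 and 46.5 CPM in the controls and 31.4 and 26.3 CPM with Z325 (log2 fold change -0.77 ± 0.19, adjusted p = 0.12), and PCNA, the sliding clamp, on chromosome 20, 319 and 291 CPM in the controls and 212 and 186 CPM with Z325 (log2 fold change -0.62 ± 0.16, adjusted p = 0.128). In these the Z325 libraries were both below both controls. Without control 1, control 2, Z325 1 and Z325 2, 11, 16, 14 and 18 members were lower at the unadjusted threshold of 0.05, and with the GC term 16. Without Z325 1, edgeR called 5 lower at the adjusted threshold.

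Of the 28 replication genes with a listed promoter, 10 (35.7%) held TTTCGCGC or TTTGGCGC, the letters of the E2F site, against 2.16% of tested genes with a promoter. This list too was chosen with these data known, so its share is a description. The elements of MCM7, POLA1, POLA2 and GINS1, the 4 of the 10 with the smallest unadjusted p, are shown as windows of 30 bases, with the motif in capitals:
POLA1, chrX:24693770-24693799, minus strand: gcggacgcgcgTTTGGCGCcctgtgatgac
GINS1, chr20:25407667-25407696, minus strand: ccgctccgcgcTTTGGCGCcgaacaaagct
POLA2, chr11:65261898-65261927, plus strand: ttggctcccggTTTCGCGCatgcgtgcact
MCM7, chr7:100101388-100101417, minus strand: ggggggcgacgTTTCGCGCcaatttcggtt
POLA1, the catalytic subunit of the primase polymerase, on the X chromosome, had 26.0 and 32.4 CPM in the controls and 14.6 and 17.2 CPM with Z325 (log2 fold change -0.87 ± 0.22, adjusted p = 0.122). MCM6, with 4 matches, 2 on each strand and overlapping in pairs, had 106 and 106 CPM in the controls and 103 and 122 CPM with Z325 and a log2 fold change of 0.09 ± 0.17, so carrying the letters did not go with a lower level in every member. Of the carriers not shown, POLE2 had an unadjusted p of 0.0453 in edgeR. CDC6, MCM2, MCM3, MCM6 and POLE had 0.0881, 0.075, 0.435, 0.603 and 0.0831 in the same test.

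The S phase and mitosis lists held no call in edgeR either. Of 29 S phase genes, edgeR and limma called none and DESeq2 3 lower. In edgeR, 1 was higher and 7 lower at the unadjusted threshold of 0.05, against 7.59% and 9.26% of all tested genes, with a median of -0.35. The 7 became 3 without control 1 and 4 without control 2. RRM2, the ribonucleotide reductase subunit, had 419.6 and 426 CPM in the controls and 240.2 and 279 CPM with Z325 and TK1, thymidine kinase, on chromosome 17, 111 and 79.8 CPM in the controls and 59.2 and 30.5 CPM with Z325 (adjusted p = 0.0986 and 0.129). Of 40 G2/M genes, edgeR and limma called none and DESeq2 5 lower. In edgeR, none was higher and 17 lower at the unadjusted threshold of 0.05, against 7.59% and 9.26% of all tested genes, with a median of -0.32. AURKB, the kinase of the chromosomal passenger complex, on chromosome 17, came closest, with 138 and 107 CPM in the controls and 65.7 and 52.5 CPM with Z325 (log2 fold change -1.06 ± 0.20, adjusted p = 0.0523). PLK1, a mitotic kinase on chromosome 16, had 76.3 and 46.4 CPM in the controls and 29.5 and 13.2 CPM with Z325 (log2 fold change -1.54 ± 0.35, adjusted p = 0.104), and UBE2C, which serves the anaphase promoting complex, on chromosome 20, 754 and 665 CPM in the controls and 470.3 and 296 CPM with Z325 (adjusted p = 0.118). PLK1 and UBE2C were lowest in Z325 2. The count of G2/M genes lower at the unadjusted threshold was 8 without control 1, 6 without control 2, 15 without Z325 1 and 10 without Z325 2, and 21 with the GC term. At the adjusted threshold edgeR called 0, 2, 6 and 2 lower in those 4 fits and 1 with the GC term.

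**Figure D3:**
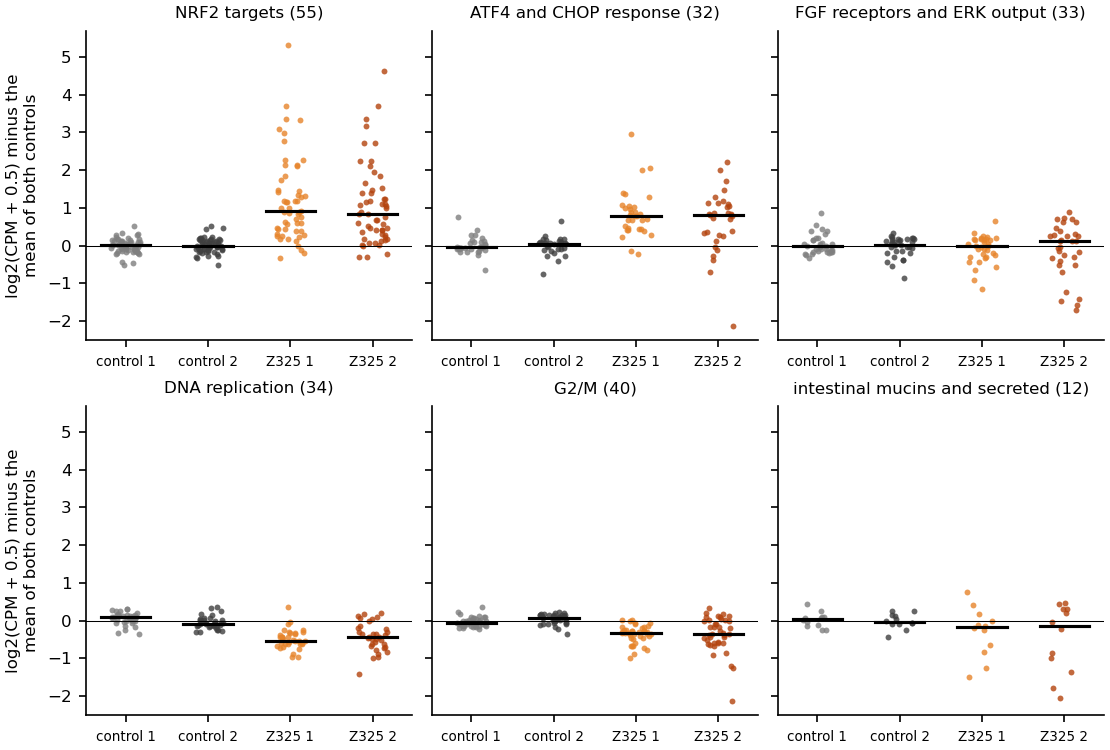
Each panel shows the tested members of 1 gene list, with log2(CPM + 0.5) minus the mean of both controls on the y axis for each of the 4 libraries (x axis), and the black bar marks the median. For NRF2 targets the medians of Z325 1 and Z325 2 are 0.90 and 0.84, and for DNA replication -0.53 and -0.43, while for the FGF receptor and ERK list they are -0.00 and 0.11.

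Replication-dependent histones, which lie on chromosomes 1 to 8, had 1 fall among 15 tested, H4C14, and 6 lower at the unadjusted threshold of 0.05, against 9.26% of all tested genes, with a median of -0.45. Without control 1, 2 were lower at that threshold, 1 fell and 1 rose. Of 39 ribosome biogenesis genes 1 fell, NPM3, and the median was -0.18. At the unadjusted threshold of 0.05 none was higher and 8 lower, against 7.59% and 9.26% of all tested genes. NHP2, a core protein of the pseudouridylation particle, had 310.2 and 205 CPM in the controls and 144 and 88.4 CPM with Z325 and NOP2, a nucleolar methyltransferase on chromosome 12, 38.5 and 40.6 CPM in the controls and 26.0 and 17.7 CPM with Z325 (adjusted p = 0.0962 and 0.129), and 54.4% of the exon bases of NOP2 overlap another gene. Of the 15 transcripts of the mitochondrial genome, edgeR and limma called none and DESeq2 3 lower, none was higher and 5 lower at the unadjusted threshold of 0.05, against 7.59% and 9.26% of all tested genes, and the median was -0.25. Without control 1 the 5 became 2. MT-CYB had 6206 and 4841 CPM in the controls and 3943 and 2737 CPM with Z325 (unadjusted p = 0.00549), and MT-ND4L, which overlaps MT-ND4, 1614 and 1043 CPM in the controls and 561 and 655 CPM with Z325 (adjusted p = 0.0569).

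Of the receptors that Z325 was docked against, FGFR2 was the abundant one in this line. FGFR2 on chromosome 10 had 228 and 217 CPM in the controls and 176 and 196 CPM with Z325 (log2 fold change -0.26 ± 0.16, adjusted p = 0.431) and did not pass the test, with both Z325 libraries below both controls. Per transcript length it had 115 and 123 in the controls and 94.00 and 119 with Z325 in FPKM (fragments scaled to transcript length and library total), while FGFR1 had 0.35 and 0.08 in the controls and 0.37 and 0.06 with Z325, FGFR3 0.22 and 0.44 in the controls and 0.36 and 0.40 with Z325 and FGFR4 0.89 and 0.48 in the controls and 2.55 and 0.14 with Z325. FGFR1 did not pass the filter on low counts, and the log2 fold changes of FGFR3 and FGFR4 were 0.22 ± 0.60 and -1.08 ± 0.95 with adjusted p of 0.888 and 0.598. The test compares transcript levels and does not read the phosphorylation of the receptors.

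Outputs of ERK held no call in edgeR. Of 39 listed receptor, adaptor and ERK output genes 33 were tested, of which edgeR, DESeq2 and limma called none. In edgeR, 3 were higher and 5 lower at the unadjusted threshold of 0.05, with a median of 0.04, against 7.59% and 9.26% of all tested genes. Outside chromosomes 1 to 8, 1 was higher and 5 lower of 16 tested, against 6.85% and 10.7% there, with a median of -0.12, and the 5 became 2 without control 1 and 1 without Z325 2. Without Z325 1, edgeR called 2 higher and 4 lower, and without control 2 1 lower. The ERK phosphatase gene DUSP6 on chromosome 12 had 64.6 and 85.4 CPM in the controls and 76.6 and 80.9 CPM with Z325 with groups that overlap, and a log2 fold change of 0.07 ± 0.19. DUSP5 on chromosome 10 had 8.33 and 9.79 CPM in the controls and 14.4 and 15.0 CPM with Z325 (unadjusted p = 0.0166), whereas SPRY2, a feedback inhibitor on chromosome 13, had 24.1 and 28.6 CPM in the controls and 17.6 and 18.2 CPM with Z325 (unadjusted p = 0.0247). ETV4 and ETV5, transcription factors that ERK induces, had 48.6 and 55.0 CPM in the controls and 58.7 and 61.7 CPM with Z325 and 62.2 and 64.2 CPM in the controls and 72.4 and 68.4 CPM with Z325 (unadjusted p = 0.242 and 0.378). The immediate early genes FOS on chromosome 14, with 18.5 and 10.7 CPM in the controls and 7.18 and 5.68 CPM with Z325, and FOSB on chromosome 19, with 2.88 and 3.10 CPM in the controls and 1.07 and 0.804 CPM with Z325, were lower in both Z325 libraries (unadjusted p = 0.00345 and 0.0105). CCND1, cyclin D1, on chromosome 11, had 201 and 153 CPM in the controls and 129.6 and 108 CPM with Z325 (log2 fold change -0.58 ± 0.19, unadjusted p = 0.0112). Of 26 tested PI3K, Akt and mTOR genes 1 fell, TXNIP, listed there as an output of FOXO factors. At the unadjusted threshold of 0.05, 4 were higher and 2 lower, against 7.59% and 9.26% of all tested genes.

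Cell death genes and p53 targets held no call in edgeR, which calls 0.403% of all tested genes higher and 0.099% lower. Of 31 tested apoptosis genes edgeR and limma called none and DESeq2 1 lower. In edgeR, 3 were higher and 5 lower at the unadjusted threshold of 0.05, against 7.59% and 9.26% of all tested genes, with a median of 0.08. CASP2 had 74.4 and 49.8 CPM in the controls and 31.7 and 16.2 CPM with Z325 (log2 fold change -1.39 ± 0.31, adjusted p = 0.0928) and BIRC5, survivin, on chromosome 17, 173 and 171 CPM in the controls and 131 and 115 CPM with Z325 (adjusted p = 0.191). Of 18 tested p53 targets edgeR and limma called none and DESeq2 1 higher. In edgeR, 1 was higher and 1 lower at the unadjusted threshold of 0.05, against the same 7.59% and 9.26%. Of the lysosome and autophagy genes, 30 tested, 1 rose, SQSTM1, the p62 autophagy receptor, which is also on the NRF2 list, with 107 and 103 CPM in the controls and 351 and 291 CPM with Z325 (log2 fold change 1.61 ± 0.17, adjusted p = 0.00223). NPC2, a lysosomal cholesterol carrier on chromosome 14, had 60.7 and 50.5 CPM in the controls and 111 and 94.6 CPM with Z325 (adjusted p = 0.0763), and LAMP1 on chromosome 13 11.6 and 11.8 CPM in the controls and 18.3 and 29.4 CPM with Z325 (adjusted p = 0.128).

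Among secretory, endocrine and identity genes MUC2 was the only call in edgeR. Of 12 tested mucin and goblet genes 1 fell, MUC2. At the unadjusted threshold of 0.05, 1 was higher and 4 lower, against 7.59% and 9.26% of all tested genes. MUC5AC, its neighbour on chromosome 11 and a gastric gel-forming mucin, had 179.8 and 126 CPM in the controls and 83.8 and 58.5 CPM with Z325 (log2 fold change -1.11 ± 0.23, adjusted p = 0.0778), whereas the goblet products TFF3 on chromosome 21 and AGR2 had 2333 and 2080.1 CPM in the controls and 1858 and 1877 CPM with Z325 and 8291 and 8702 CPM in the controls and 9556 and 9701 CPM with Z325 (adjusted p = 0.46 and 0.588). Of 17 tested enteroendocrine genes edgeR and limma called none and DESeq2 1 higher. In edgeR, 5 were higher and 4 lower at the unadjusted threshold of 0.05, against the same 7.59% and 9.26%. Granule genes SCG3 and SCG5 on chromosome 15 had 233 and 257 CPM in the controls and 326 and 346 CPM with Z325 and 4.77 and 5.62 CPM in the controls and 13.2 and 11.6 CPM with Z325 (unadjusted p = 0.0147 and 0.00103), and the hormone genes GCG and SST were lower, SST with 15.4 and 17.6 CPM in the controls and 9.70 and 8.75 CPM with Z325 (unadjusted p = 0.0434 and 0.00558). Of 22 tested intestinal identity genes edgeR, DESeq2 and limma called none. In edgeR, 1 was higher and 1 lower at the unadjusted threshold of 0.05, against the same 7.59% and 9.26%. CDX2 on chromosome 13 had 17.5 and 14.9 CPM in the controls and 14.1 and 13.3 CPM with Z325 and HNF4A on chromosome 20 47.9 and 49.2 CPM in the controls and 49.9 and 40.3 CPM with Z325, with adjusted p of 0.625 and 0.814.

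Some markers of other cell types moved in the same libraries. HBA2, an alpha-globin gene on chromosome 16, had 202 and 109 CPM in the controls and 70.9 and 32.5 CPM with Z325 (log2 fold change -1.60 ± 0.36, adjusted p = 0.0962), with 79.2% of its windows shared with its neighbour, and the fibroblast marker LUM on chromosome 12 had 277 and 226 CPM in the controls and 199 and 117 CPM with Z325 (adjusted p = 0.21). Of the 8 erythroid and liver markers 5 were tested and none was called in edgeR, DESeq2 or limma, with 1 higher and 2 lower at the unadjusted threshold of 0.05 in edgeR. Of the 12 fibroblast and endothelial markers 4 were tested and none was called by any of the 3, with 1 higher and 2 lower. The summed level of the latter list ran from 525 to 593 CPM over the 4 libraries. These libraries are of a cell line, and which of its cells hold such transcripts was not tested. In bulk RNA fewer cells holding a transcript and less of it per cell cannot be told apart.

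Lower genes were not spread evenly over the chromosomes. At the unadjusted threshold of 0.05, 17.7% of the 819 tested genes of chromosome 19 were lower and 4.15% higher, and chromosomes 16, 17, 11 and 22 also had 12.8% to 13.1% lower, whereas chromosome 18 had 12.9% higher and 4.98% lower and chromosome 4 12.3% higher and 4.46% lower. Median log2 fold changes ran from -0.19 on chromosome 19 to 0.12 on chromosome 18, with -0.25 for the mitochondrial genome. The log2 fold change fell with transcript GC content over 14067 genes (Spearman's rho = -0.291, a description across genes that share the same libraries), from a median of 0.13 in the lowest group to -0.34 in the highest. With the GC term, genes outside chromosomes 1 to 8 had 595 higher and 677 lower at the unadjusted threshold of 0.05, in place of 527 and 825. All 71 calls were kept with the GC term.

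**Figure D4:**
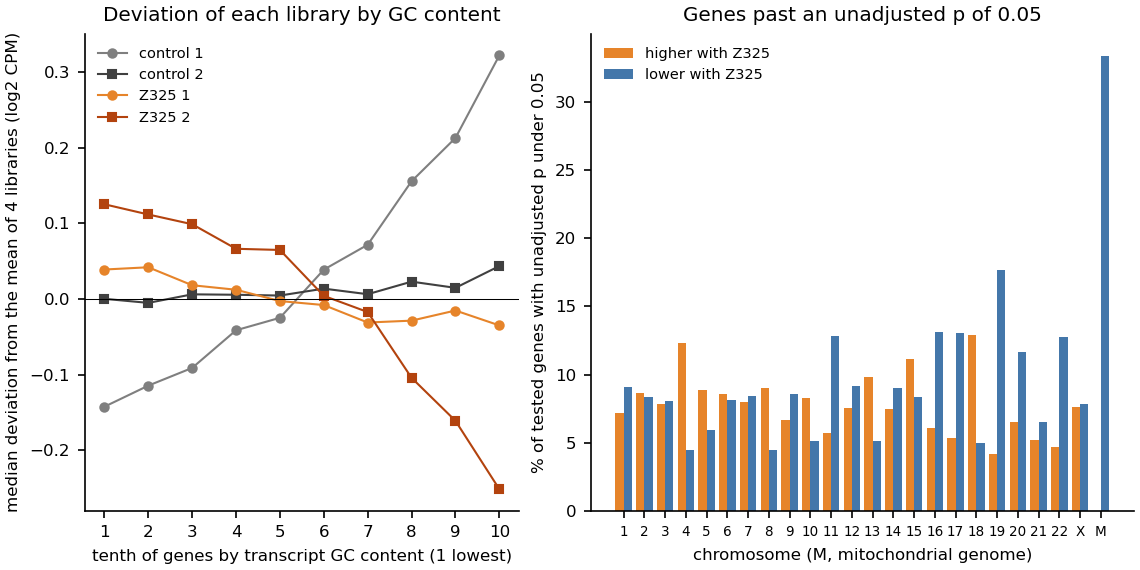
Left, median deviation of each library from the mean of the 4 libraries (log2 CPM, y axis) over 10 groups of genes by transcript GC content (x axis), which runs from -0.14 to 0.32 in control 1 and from 0.13 to -0.25 in Z325 2. Right, percent of tested genes on each chromosome (x axis) with an unadjusted p under 0.05 (y axis), higher in orange and lower in blue, where chromosome 19 has 4.15% and 17.7%.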

How the data were processed

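RNA of about 100 cells per reaction was amplified by a SMART-Seq2 type kit and sequenced. Per the study's methods, reads were trimmed with TrimGalore, aligned with STAR to GRCh38 and quantified per gene with RSEM, while the submitters' processing notes name Bowtie2 2.5.0 and featureCounts. The authors deposited expected counts per gene, 6.65% of which were not whole and were rounded, and FPKM values, used for levels between genes and for limma. Gene symbols and positions came from GENCODE release 44 (GRCh38), and 575 of 63241 genes had no symbol. Whether counting used strand is not given in the sources used here, so overlapping genes and near-identical copies are uncertain. The share of 75-base transcript windows found in another gene was computed for named genes.

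Counts were tested with edgeR 4.0.16 (R 4.3.3) by the quasi-likelihood test, with TMM factors, filterByExpr and no block, and Benjamini-Hochberg adjustment over the 14142 genes tested. CPM are TMM-normalized. With 2 libraries a side an exact test of 1 gene cannot go below p = 0.333. Named genes were the 14 called rises with the largest change and the called falls outside chromosomes 1 to 8, and the largest called rises and falls elsewhere, with a mean of at least 10 CPM, a symbol and groups that do not overlap. For each gene list up to 5 tested members with the smallest unadjusted p could be named, and not all of these are given above. FGFR1 to FGFR4 were named as well. Other list members and the remaining calls were named after their values were seen. The members and lists were chosen with earlier results of these data known. Alternatives were DESeq2 1.42.0, limma 3.58.1 on log2(FPKM + 1), on log2(FPKM + 0.1) and on genes with a mean FPKM of at least 1, library size alone, at least 10 counts in every library, no filter, thinning to the shallowest library, a replicate block and leaving out each library. A GC term, alone and with the block, was added after seeing the data. The fits were also run on simulated data, and the outcome is not given here. The HCT116 table was not used here.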

Additional observations from a re-analysis of the deposited data

How the results depend on the processing

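Every one of the 71 calls kept its direction under each alternative in which it was tested, and all 71 stayed called in DESeq2, with library size alone, with no filter, with the replicate block and with the GC term, 70 after thinning and 6 in limma. Counts of rises and falls moved much more. DESeq2 gave 173 rises and 191 falls (94 and 138 outside chromosomes 1 to 8), library size alone 28 falls (21 outside), no filter 311 and 476 (175 and 324), thinning 14 falls outside, and the GC term 26 falls (47 and 17 outside). Limma on log2(FPKM + 1) and on log2(FPKM + 0.1) gave 5 rises and 1 fall (3 and 0 outside), and with a mean FPKM of at least 1 it gave 5 and 3 (3 and 0 outside). The cause was not tested. Leaving out 1 library gave 52 to 503 rises and 10 to 895 falls (26 to 265 and 5 to 591 outside). Of the other values, 1957 stayed on their side of the threshold or within the spread, 347 gained a call, 96 lost one and 108 moved. None of the genes followed here changed sign while called in either fit, and genes called only in an alternative were not all followed. Genes called in neither fit could change sign and were counted as staying. For example, the log2 fold change of FGFR3 was 0.22 in the main fit and reached -0.19 with 1 library left out.

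The replicate block gave 1061 rises and 1336 falls (518 and 845 outside), and with the GC term 676 and 926 (385 and 525). Deviations of same-numbered libraries correlated at 0.198 and those of crossed numbers at -0.198, and with 2 pairs the numbers were not taken to pair the libraries. The block leaves 1 residual degree of freedom per gene. The GC fits were chosen after seeing the data. Depth limits the low genes: 3 genes called were at 0 in both libraries of a group, and their fitted changes depend on the prior count.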
